A study of Mus musculus with 16 samples.

Results

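Replication-dependent histone genes encode the core histones H2A, H2B, H3 and H4 and the linker histone H1, and were taken as every gene whose symbol starts with Hist1h, Hist2h, Hist3h or Hist4h in both deposited count tables. This gave 67 of the 22675 genes shared by the tables, with 6 H1, 18 H2A, 18 H2B, 12 H3 and 13 H4 genes. They were measured in splenic B cells of C57BL/6 mice that all carried AID-Cre, the B1-8hi heavy chain with GFP, and the ZSDAT allele of Zfp318, which reports with tdTomato. Mice were heterozygous (Zfp318ZSDAT/+) or homozygous (Zfp318ZSDAT/ZSDAT), and every group shared the immunization with NP-OVA, LPS and alum 7 days before collection. The cells bound NIP, were B220+CD38+ and lacked CD138, GL7, FAS and surface IgD, and were sorted as tdTomato-negative or tdTomato-positive. The 4 groups had 4 libraries each, of about 1000 cells per library: HetTN (heterozygous, tdTomato-negative), HetTP (heterozygous, tdTomato-positive), KOTN (homozygous, tdTomato-negative) and KOTP (homozygous, tdTomato-positive). No group lacked the ZSDAT allele or AID-Cre, and the age and sex of the mice are not given in the labels.

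Cells make most of their new histones while DNA is replicated, when each new stretch of DNA has to be wrapped around fresh nucleosomes. The core histones form the protein spool of the nucleosome, and H1 binds the DNA between nucleosomes. The genes sit in clusters and exist in many near-identical copies. Their mRNAs are the textbook exception to polyadenylation: they end shortly after a stem-loop that is bound by the stem-loop binding protein Slbp, and they are degraded when replication stops. The libraries were made with Smart-seq2 from an anchored oligo-dT primer, per the labels' protocols, so a histone transcript could enter a library as a polyadenylated form or by priming elsewhere.

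The 67 genes lay in 4 clusters (GRCm38, the build called mm10 in the submitters' processing notes, with positions from GENCODE M21). Hist1, with 54 genes, spans chromosome 13 from 21715763 to 23934851. Hist2 holds 10 genes on chromosome 3 (96219865 to 96270132), Hist3 holds 2 on chromosome 11 (58948920 to 58956830) and Hist4 is the single gene Hist4h4 on chromosome 6 (136801553 to 136804415). The coding sequences were 312 to 672 bases long.

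The stem-loop was searched in the 150 bases after the stop codon of each GENCODE transcript, on the strand of the gene, as a stem of GGNNNT, a loop of 4 bases that starts with T, and a stem of ANNNCC, with all 6 stem pairs complementary. It was found in 46 of the 67 genes and in 9 of 21610 other coding genes, or 0.0417%. The genes whose levels carry the results below are shown, with the stem strands in capitals and 5 bases on either side:
Hist1h1c: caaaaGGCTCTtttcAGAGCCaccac
Hist1h1e: ccaaaGGCTCTtttcAGAGCCaccca
Hist1h2ae: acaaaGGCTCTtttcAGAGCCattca
Hist1h2ao: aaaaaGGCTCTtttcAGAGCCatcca
Hist2h2ac: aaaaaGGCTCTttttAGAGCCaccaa
Hist1h3e: aaaacGGCTCTtttaAGAGCCacctc
Hist1h4d: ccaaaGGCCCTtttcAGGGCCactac
Hist1h4i: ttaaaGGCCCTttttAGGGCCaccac

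From the first to the last stem base these lie at chr13:23739512-23739527 (plus strand) in Hist1h1c, chr13:23621782-23621797 (minus) in Hist1h1e, chr13:23570668-23570683 (minus) in Hist1h2ae and chr13:21810898-21810913 (plus) in Hist1h2ao. The others lie at chr3:96220418-96220433 (minus) in Hist2h2ac, chr13:23561903-23561918 (minus) in Hist1h3e, chr13:23581950-23581965 (plus) in Hist1h4d and chr13:22040966-22040981 (minus) in Hist1h4i. The stem of Hist1h1c, Hist1h1e, Hist1h2ae and Hist1h2ao, with its loop, was shared by 26 of the 46 genes, and that of Hist1h4d by 7. It began 22 to 59 bases after the stop codon. Of the 21 genes in which it was not found, 17 had under 75 bases annotated after the stop codon, so the window was cut short. The other 4 were Hist1h2bc, Hist1h2bq, Hist1h2br and Hist2h2be.

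Further features were read from the references. RefSeq promoters (GRCm38.p6, 250 bases before to 50 after the start) were matched for 61 of the 67 genes. The letters CCAAT, searched on both strands, were in 85.2% of them against 37.4% of all 32851 promoters, and TATAA was in 80.3% against 24.9%. A match of letters is a description and shows no binding. Near-identical copies were counted as shared windows: over the annotated transcripts, the median share of 50-base windows that also occur in another gene was 10.9% in H1, 87.9% in H2A, 77.3% in H2B, 84.7% in H3 and 70.3% in H4. How reads that map to several genes were counted is not given in the sources used here, so the values of single H2A, H2B, H3 and H4 genes are uncertain, most of all those of the 13 members with 100% of windows shared: Hist1h2ad, Hist1h2ag, Hist1h2ao, Hist1h2ap, Hist1h2bq, Hist1h2br, Hist1h4m, Hist1h4n, Hist2h2aa1, Hist2h2aa2, Hist2h3c1, Hist2h3c2 and Hist3h2a.

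Total counts were 7748787 to 15742445 per library. Zfp318 matched the genotype labels, with means of 118 and 113 CPM (the count divided by the library total, times 1000000) in HetTN and HetTP against 2.34 and 1.86 CPM in KOTN and KOTP. The 6 B cell markers were present in every group, at a summed 9808 to 12911.5 CPM in heterozygous and 12880 to 15244 CPM in homozygous libraries. Within each sorted population every homozygous library lay above every heterozygous one. In each genotype comparison 4 of the 6 were higher and 1, Pax5, was lower at an edgeR adjusted p under 0.05. The 8 T cell markers summed to 123 to 590 CPM in the heterozygous libraries, most of it Trac, and to 0.258 to 3.09 CPM in the homozygous ones, with Cd4 at 0 in all 16 libraries. Sums of the 12 myeloid markers were 132 to 1200 CPM against 71.1 to 140 CPM, and those of the 6 erythroid markers 14.4 to 95.2 CPM against 9.76 to 20.8 CPM. Single markers did not all move with their sum. The myeloid marker Adgre1 had means of 12.5 and 10.9 CPM in HetTN and HetTP against 40.4 and 37.2 CPM in KOTN and KOTP. It did not pass the test (edgeR adjusted p = 0.31 in tdTomato-negative and 0.28 in tdTomato-positive cells). Summed markers of activated B cell stages, which the gates on GL7, FAS and CD138 were to leave out, were also lower in homozygous libraries. The 8 germinal center markers summed to 539 to 1057 CPM in heterozygous and 209 to 452 CPM in homozygous libraries, and the 6 plasma cell markers to 260 to 842 against 74.8 to 210 CPM, with no overlap. The part of these cells in the histone differences was not tested. Each genotype has its own deposited table, so genotype cannot be told apart from a batch or from a difference in counting between the tables. In bulk samples like these, fewer cells with a transcript and less transcript per cell cannot be told apart either.

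Histone transcripts of all classes together made up 610 ± 233 CPM in HetTN, 686 ± 113 in HetTP, 866 ± 44.6 in KOTN and 790 ± 55.0 in KOTP (SD, n = 4). The sum was 1.42 times as high in KOTN as in HetTN and 1.15 times as high in KOTP as in HetTP. The libraries overlapped in both comparisons, since HetTN replicate 2 (905 CPM) and HetTP replicate 2 (851 CPM) lay among the homozygous libraries (730 to 928 CPM). The classes did not move alike. H4 was the one class whose homozygous libraries all lay above all heterozygous ones in both sorted populations, and H2A was the one class with a lower mean in both.

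**Figure D1:**
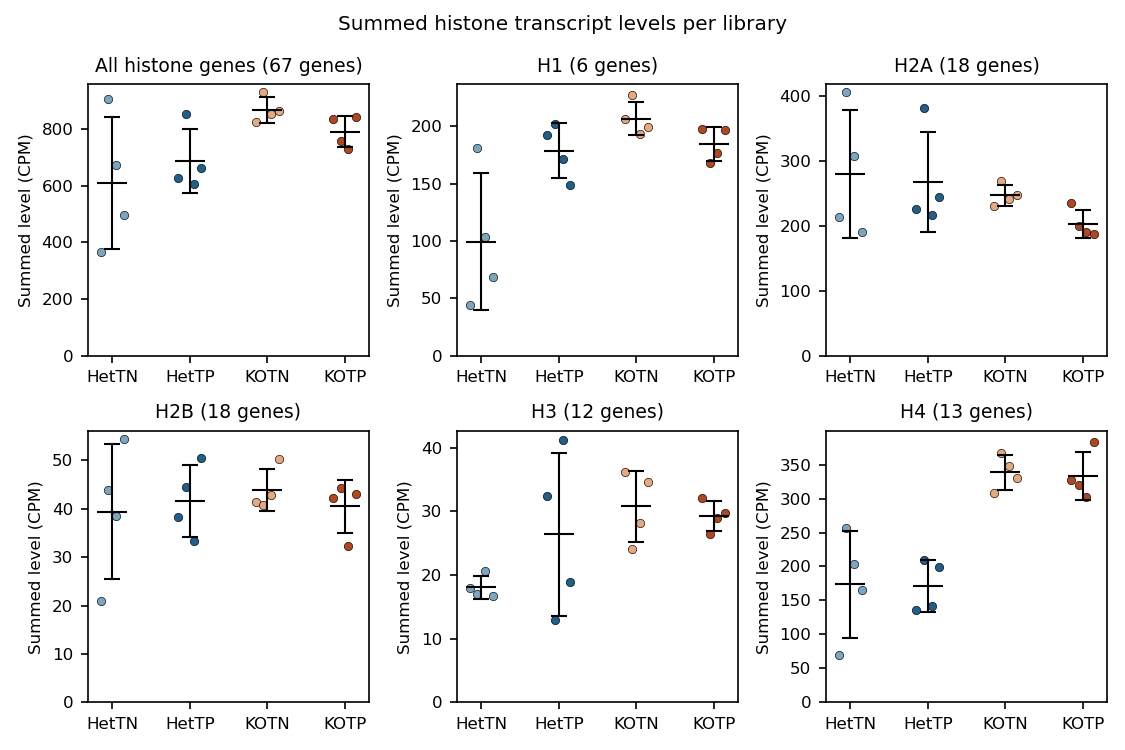
Summed level of all 67 histone genes and of each class, in CPM on linear axes from 0, for the 4 libraries of each group (points) with mean and SD (bars). In the H4 panel the homozygous libraries lie between 302 and 384 CPM and the heterozygous ones between 69.4 and 257 CPM.

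Few genes carried these sums. The 5 most abundant held 58.1% of the sum in HetTN, 61.1% in HetTP, 62.6% in KOTN and 61.6% in KOTP. Per kilobase of coding sequence, over the 16 libraries, the highest were Hist1h4d at 561 CPM per kb, Hist1h2ae at 274, Hist1h1e at 120, Hist1h4i at 114 and Hist3h2a at 88.7. Hist1h4d and Hist1h2ae came first and second in each of the 4 groups. Hist1h1e followed them in HetTP, KOTN and KOTP but ranked only 9 in HetTN, at 49.4 CPM per kb, where Hist1h4i (129) and Hist1h2ao (101) followed Hist1h2ae. The median of the 67 genes was 6.04 CPM per kb. Hist1h1t and Hist1h2ba, which are testis forms, and Hist1h2bq had no count in any library.

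Tests were made with edgeR's quasi-likelihood test over 10687 genes, with Benjamini-Hochberg adjustment over all of them and calls at an adjusted p under 0.05. Of the 67 genes, 56 passed its filter on low counts, and a gene could pass through 1 group alone. Between KOTP and HetTP, 10.3% of all genes tested were called, and 2 histone genes rose and 1 fell. Between KOTN and HetTN, 10.5% were called, and 5 histone genes rose and 1 fell. With 3 and 6 calls among 56 tested members, the share of members called was below that of all genes in the first comparison and near it in the second. In KOTP against HetTP, DESeq2 called 14% of all genes and 8 of 56 members, voom 11.5% and 6 of 56, and edgeR on the 8 compared libraries alone 11.7% and 7 of 49. In KOTN against HetTN the same fits called 15% and 9 of 56, 7.86% and 4 of 56, and 7.3% and 3 of 42. The median log2 fold change of the tested members was 0.70 in KOTP against HetTP and 0.80 in KOTN against HetTN. Over all genes, which were not matched for level, it was -0.03 and 0.00. With at least 5 CPM in at least 4 libraries, 26 members were left, with medians of 0.40 and 0.65. Members that passed a filter only through a group where they are high raise such a median, so no conclusion is drawn from it. Fold changes are scaled with TMM, which raises the log2 difference over plain CPM by 0.23 and 0.09 in these comparisons.

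Groups without overlap were counted over the 64 members with any count. Of these, 15 (23.4%) had all KOTP libraries above all HetTP libraries and 5 (7.81%) had them below, against 5.74% and 10.2% of all genes with a count. In KOTN against HetTN, 12 (18.8%) were above and 1 (1.56%) below, against 8.5% and 6.3% of all genes. H4 supplied 8 of the 15 in the tdTomato-positive comparison and 2 of the 12 in the tdTomato-negative one. H2B supplied 2 and 5, H1 supplied 1 and 3, H3 supplied 1 and 2, and H2A supplied 3 and 0.

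Linker histones were lowest in HetTN. The H1 sum was 44.1, 181, 103 and 68.6 CPM in HetTN, 193, 202, 172 and 149 in HetTP, 207, 227, 193 and 199 in KOTN, and 197, 168, 176 and 197 in KOTP. KOTN lay above HetTN in every library, at a ratio of 2.08, while KOTP and HetTP overlapped, at a ratio of 1.03.

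Hist1h1e, which encodes the linker histone H1.4 (ENSMUSG00000051627, chromosome 13, 23620629 to 23622558, minus strand), was at 16.5, 52.3, 44.4 and 17.2 CPM in HetTN and at 99.1, 120, 96.6 and 100 CPM in KOTN. The KOTN libraries were all above the HetTN ones, and Hist1h1e rose by a log2 fold change of 1.74 ± 0.32 (SE; edgeR adjusted p = 0.00185). HetTP was already high, at 90.6, 101, 52.5 and 85.3 CPM, and KOTP was at 100, 91.7, 94.0 and 108 CPM. That pair overlapped, with a log2 fold change of 0.49 ± 0.31 (SE; edgeR adjusted p = 0.42). All HetTP libraries lay above all HetTN libraries, narrowly at 52.5 against 52.3 CPM, but the log2 fold change of 1.19 ± 0.32 (SE) did not pass the test (adjusted p = 0.0695). The difference between the tdTomato effects in the genotypes was -1.25 on the log2 scale (SE 0.44, adjusted p = 0.32).

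Hist1h1c, which encodes H1.2 (ENSMUSG00000036181, chromosome 13, 23738808 to 23740367, plus strand), was at 11, 15.9, 3.95 and 37.2 CPM in HetTN against 59.8, 57.5, 51.0 and 55.0 CPM in KOTN. It rose by a log2 fold change of 1.78 ± 0.44 (SE; edgeR adjusted p = 0.0152), with no overlap between the libraries. With only these 8 libraries in the fit its adjusted p was 0.0963. In the tdTomato-positive cells it was at 24.2, 33.3, 21.5 and 27.7 CPM in HetTP against 58.5, 52.3, 50.3 and 45.4 CPM in KOTP. The groups did not overlap there either, and the log2 fold change of 1.18 ± 0.43 (SE) did not pass (adjusted p = 0.10). Hist1h1d, which encodes H1.3, also had every KOTN library (20.8 to 23.9 CPM) above every HetTN library (0 to 13.4 CPM), at an adjusted p of 0.19.

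Hist1h1b, which encodes H1.5, did not share this pattern. It was at 16.3, 92.4, 36.0 and 4.70 CPM in HetTN, 64.4, 37.9, 72.7 and 26.1 in HetTP, 20.6, 25.4, 21 and 20.3 in KOTN, and 20.0, 7.26, 12.8 and 18.1 in KOTP. All KOTP libraries lay below all HetTP libraries, with a log2 fold change of -1.56 ± 0.61 (SE; edgeR adjusted p = 0.12), and the tdTomato-negative groups overlapped. Hist1h1a, the H1.1 gene, likewise had its KOTP libraries (0.250 to 2.96 CPM) below its HetTP libraries (5.04 to 8.26 CPM) without passing (adjusted p = 0.46). Hist1h1a and Hist1h1b share no 50-base window with another gene, and neither has a stem-loop within its annotated end.

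**Figure D2:**
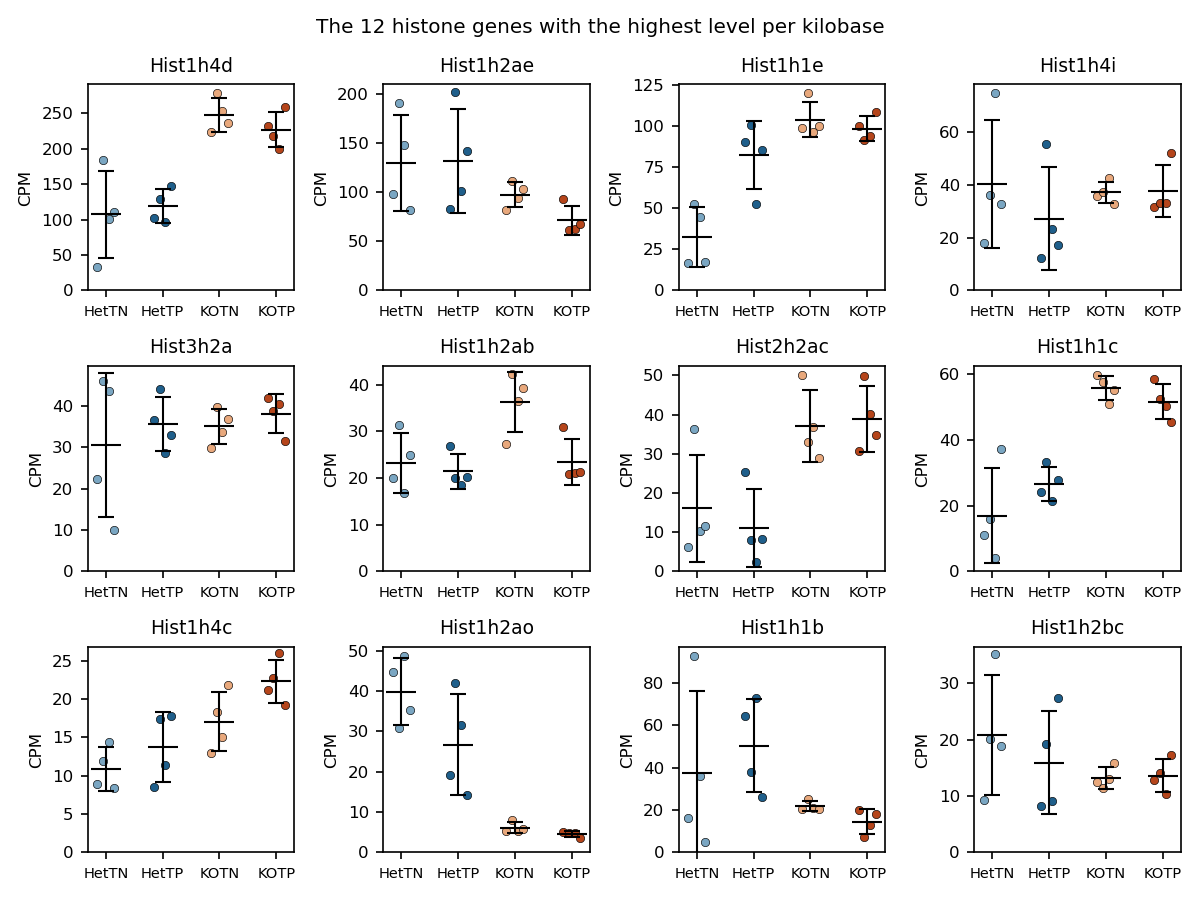
Level in CPM of the 12 histone genes with the highest mean level per kilobase, in every library (points), with the mean and SD of each group (bars, n = 4; SD bars that would pass under 0 end at the axis). Hist1h4d, Hist1h1c and Hist2h2ac have higher means in both homozygous groups, and every homozygous library is below every heterozygous one in Hist1h2ao.

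H2A, the class with the most transcripts in heterozygous cells, had sums of 214, 406, 307 and 191 CPM in HetTN, 225, 381, 217 and 245 in HetTP, 230, 269, 241 and 247 in KOTN, and 235, 200, 190 and 187 in KOTP. The groups overlapped in both genotype comparisons, at ratios of 0.883 (KOTN to HetTN) and 0.761 (KOTP to HetTP). As a share of all histone counts, H2A made up 46.8 ± 8.34% in HetTN, 38.4 ± 4.28% in HetTP, 28.5 ± 0.434% in KOTN and 25.7 ± 2.49% in KOTP (SD, n = 4).

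Single H2A genes moved in opposite directions. Hist1h2ao (ENSMUSG00000094248, chromosome 13, 21810465 to 21810944, plus strand) was at 44.6, 30.8, 48.7 and 35.1 CPM in HetTN and 19.1, 41.9, 31.6 and 14.2 CPM in HetTP. It was at 5.42, 8.02, 5.37 and 5.84 CPM in KOTN and 5.06, 4.75, 4.76 and 3.63 CPM in KOTP. Every homozygous library was below every heterozygous one, and Hist1h2ao was the histone gene called in both comparisons with a fall. On the log2 scale it fell by 2.60 in tdTomato-negative cells (SE 0.39, edgeR adjusted p = 0.000321) and by 2.33 in tdTomato-positive cells (SE 0.39, edgeR adjusted p = 0.000642). All of its 50-base windows occur in other genes. The members with every window shared went both ways: of the 9 tested, 6 had a log2 fold change above 0 and 3 below 0 in KOTP against HetTP, and 5 and 4 in KOTN against HetTN, and Hist1h2ao was the 1 called. Hist1h4n (log2 fold change 2.98) and Hist2h2aa1 (1.25) had all KOTP libraries above all HetTP libraries without passing. Hist1h2ap and Hist1h2ag had all KOTP libraries below all HetTP libraries (3.88 to 5.19 against 10.5 to 22.9 CPM, and 1.95 to 4.94 against 6.85 to 15.0 CPM), with adjusted p of 0.12 and 0.38. The 13 members with every window shared held 17.1%, 14.2%, 8.35% and 9.56% of the histone sum in HetTN, HetTP, KOTN and KOTP. The part of shared windows in the fall of Hist1h2ao was not tested.

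Hist2h2ac, an H2A gene of the Hist2 cluster (ENSMUSG00000068855, chromosome 3, 96220361 to 96220880, minus strand), went the other way. It was at 25.3, 8.11, 2.29 and 8.21 CPM in HetTP against 30.6, 49.9, 40.0 and 34.8 CPM in KOTP. The groups did not overlap, and Hist2h2ac rose by a log2 fold change of 2.07 ± 0.59 (SE; edgeR adjusted p = 0.0303). Among tdTomato-negative cells it was at 6.30, 36.3, 10.3 and 11.6 CPM in HetTN against 50.1, 33.0, 36.9 and 28.9 CPM in KOTN, where HetTN replicate 2 overlapped with KOTN and the log2 fold change of 1.27 ± 0.58 (SE) did not pass (adjusted p = 0.18). Leaving out any 1 of 6 of the 8 tdTomato-positive libraries raised the adjusted p in KOTP against HetTP past the threshold, to 0.0597 to 0.0822.

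Hist1h2ae, the most abundant H2A gene (ENSMUSG00000069272, chromosome 13, 23570517 to 23571220, minus strand), was at 98.6, 191, 148 and 82.3 CPM in HetTN, 82.5, 203, 102 and 142 in HetTP, 82.1, 111, 94.2 and 103 in KOTN, and 93.1, 61.8, 63.0 and 67.5 in KOTP. The groups overlapped, with log2 differences of -0.33 ± 0.28 and -0.67 ± 0.28 (SE; edgeR adjusted p = 0.54 and 0.16). Hist3h2a stayed within 9.92 to 46.0 CPM in all 16 libraries. Hist1h2ab was at 36.4 ± 6.46 CPM in KOTN and at 21.4 to 23.5 CPM on average in the other groups (SD, n = 4), and its log2 fold change of 0.72 ± 0.29 (SE) in KOTN against HetTN did not pass (adjusted p = 0.13).

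H2B transcripts were scarce, and their sum hardly differed between the groups. It was 39.4 ± 14 CPM in HetTN, 41.6 ± 7.42 in HetTP, 43.8 ± 4.37 in KOTN and 40.5 ± 5.48 in KOTP (SD, n = 4). KOTP to HetTP gave a ratio of 0.972 with plain CPM and 1.14 with TMM scaling, so the direction depends on the scaling. The number of H2B genes seen differed: 5 to 9 of 18 had a count in a HetTN library, 8 to 11 in a HetTP library and 14 to 16 in each homozygous library. This was not particular to H2B. Of all genes tested, 11.7% to 13.6% had no count in a HetTN library and 7.02% to 11.2% in a HetTP library. In a homozygous library it was 1.52% to 2.34%.

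Hist1h2bc, the most abundant H2B gene, overlapped in both genotype comparisons, at 8.22 to 35.1 CPM in the heterozygous and 10.3 to 17.2 CPM in the homozygous libraries. Hist2h2be, an H2B gene that shares no 50-base window with another gene (ENSMUSG00000068854, chromosome 3, 96221119 to 96223738, plus strand), had no count in the 4 HetTN libraries. In KOTN it was at 1.03, 2.01, 1.29 and 1.52 CPM, from 51 counts. Hist2h2be was called higher in KOTN than in HetTN (adjusted p = 0.0177, edgeR). Set against a floor of 3 counts over the HetTN group, the rise had a bound of 22.9-fold, which that p does not test. That fold leaves out the error of the KOTN counts and the spread between libraries. HetTP held 1.87, 1.61, 0 and 1.66 CPM and KOTP 3.95, 1.00, 2.71 and 2.09 CPM, and these overlapped. With voom in place of edgeR the adjusted p in KOTN against HetTN was 0.163. Hist1h2bm, too, had no count in HetTN and 76 counts in KOTN, 34.2-fold above the same floor, and did not pass (edgeR adjusted p = 0.0545). Hist1h2be was at 0 to 0.494 CPM in HetTN and 2.58 to 4.21 CPM in KOTN, with an adjusted p of 0.0647.

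H3 genes were the scarcest class, with a sum of 18.0, 17.0, 20.7 and 16.7 CPM in HetTN, 32.5, 13.0, 41.2 and 19.0 in HetTP, 36.1, 24.1, 28.2 and 34.7 in KOTN, and 32.1, 26.4, 29.0 and 29.7 in KOTP. Every KOTN library was above every HetTN library, at a ratio of 1.70, and KOTP lay within the range of HetTP. Hist1h3e (ENSMUSG00000069273, chromosome 13, 23561534 to 23562369, minus strand), which encodes a canonical H3, was at 0, 0, 0 and 0.348 CPM in HetTN against 9.68, 4.23, 8.59 and 10.7 CPM in KOTN. It rose on 4 counts against 285, with a log2 fold change of 6.44 ± 1.82 (SE; edgeR adjusted p = 0.0293). HetTP was at 0, 0, 11.7 and 4.37 CPM, and spanned the KOTP libraries at 8.64, 4.25, 7.25 and 7.40 CPM. The call in tdTomato-negative cells was lost with voom (adjusted p = 0.117) and on leaving out any 1 of 7 of the 8 libraries (0.0512 to 0.0659). Hist1h3g had no count in HetTN and 41 counts in KOTN, 18.4-fold above the floor of 3 counts, and did not pass (edgeR adjusted p = 0.0813). In HetTP its 134 counts all came from replicate 3.

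H4 transcripts were about as abundant in HetTN as in HetTP and higher in both homozygous groups. The sums were 69.4, 257, 204 and 165 CPM in HetTN, 137, 210, 142 and 199 in HetTP, 308, 367, 347 and 331 in KOTN, and 327, 320, 302 and 384 in KOTP. The ratio of the means was 1.95 in tdTomato-negative and 1.94 in tdTomato-positive cells with plain CPM, and 2.04 and 2.27 with TMM scaling. H4 made up 27.7 ± 6.20% of all histone counts in HetTN and 25.0 ± 3.58% in HetTP, against 39.0 ± 1.42% in KOTN and 42.1 ± 2.68% in KOTP (SD, n = 4).

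Hist1h4d, the histone gene with the highest level (ENSMUSG00000061482, chromosome 13, 23581598 to 23582735, plus strand), held most of the class sum on average. It was at 32.8, 184, 101 and 111 CPM in HetTN and 102, 129, 96.2 and 148 CPM in HetTP. It was at 223, 278, 253 and 236 CPM in KOTN and 232, 218, 199 and 259 CPM in KOTP. Every homozygous library was above every heterozygous one, and Hist1h4d was the one histone gene called in both comparisons with a rise. The log2 fold change was 1.26 (SE 0.33, adjusted p = 0.0198, edgeR) in tdTomato-negative and 1.16 (SE 0.33, adjusted p = 0.0281) in tdTomato-positive cells. The size held at 0.95 to 1.66 and 1.08 to 1.28 on leaving out single libraries, and the call was near the threshold. It was lost in tdTomato-negative cells without KOTN replicate 2 (adjusted p = 0.0558) and with the 8 compared libraries alone (0.105), and in tdTomato-positive cells without any 1 of 6 libraries (0.0523 to 0.0831).

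The other H4 genes did not pass the test, although 7 of them had KOTP libraries that lay wholly above the HetTP ones. Hist1h4c was at 8.50, 17.4, 11.4 and 17.8 CPM in HetTP against 21.2, 22.8, 26.0 and 19.3 CPM in KOTP, with a log2 fold change of 0.92 ± 0.38 (SE; edgeR adjusted p = 0.15). Hist1h4n, with every 50-base window shared, was at 0.191 to 4.02 CPM in HetTP and 10.1 to 16.8 CPM in KOTP, with an adjusted p of 0.0845. Hist4h4, which shares no 50-base window with another gene, had counts in 1 of 4 libraries in HetTN (5.06 CPM) and in HetTP (1.87 CPM), and in all 8 homozygous libraries (3.74 to 8.88 CPM). Its log2 fold change in KOTP against HetTP was 4.26 (SE 1.92, adjusted p = 0.20). Hist1h4h, at 0.0635 to 1.49 CPM in HetTP and 5.31 to 7.51 CPM in KOTP, and Hist1h4k, on 2 counts in HetTP against 29 in KOTP (19.1-fold, exact 95% Poisson interval 4.83 to 165, counting error only), did not pass either (adjusted p = 0.0964 and 0.12). Hist1h4b was at 0.0934 to 1.51 CPM in HetTP and 1.98 to 6.00 CPM in KOTP, a log2 difference of 3.24 ± 1.28 (SE; edgeR adjusted p = 0.13). Hist1h4a was at 0.0803 to 0.377 CPM in HetTP and at 0.494 CPM or more in every KOTP library, a log2 difference of 2.64 ± 1.53 (SE; edgeR adjusted p = 0.37). Hist1h4i, the second H4 gene by level, overlapped in both comparisons.

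**Figure D3:**
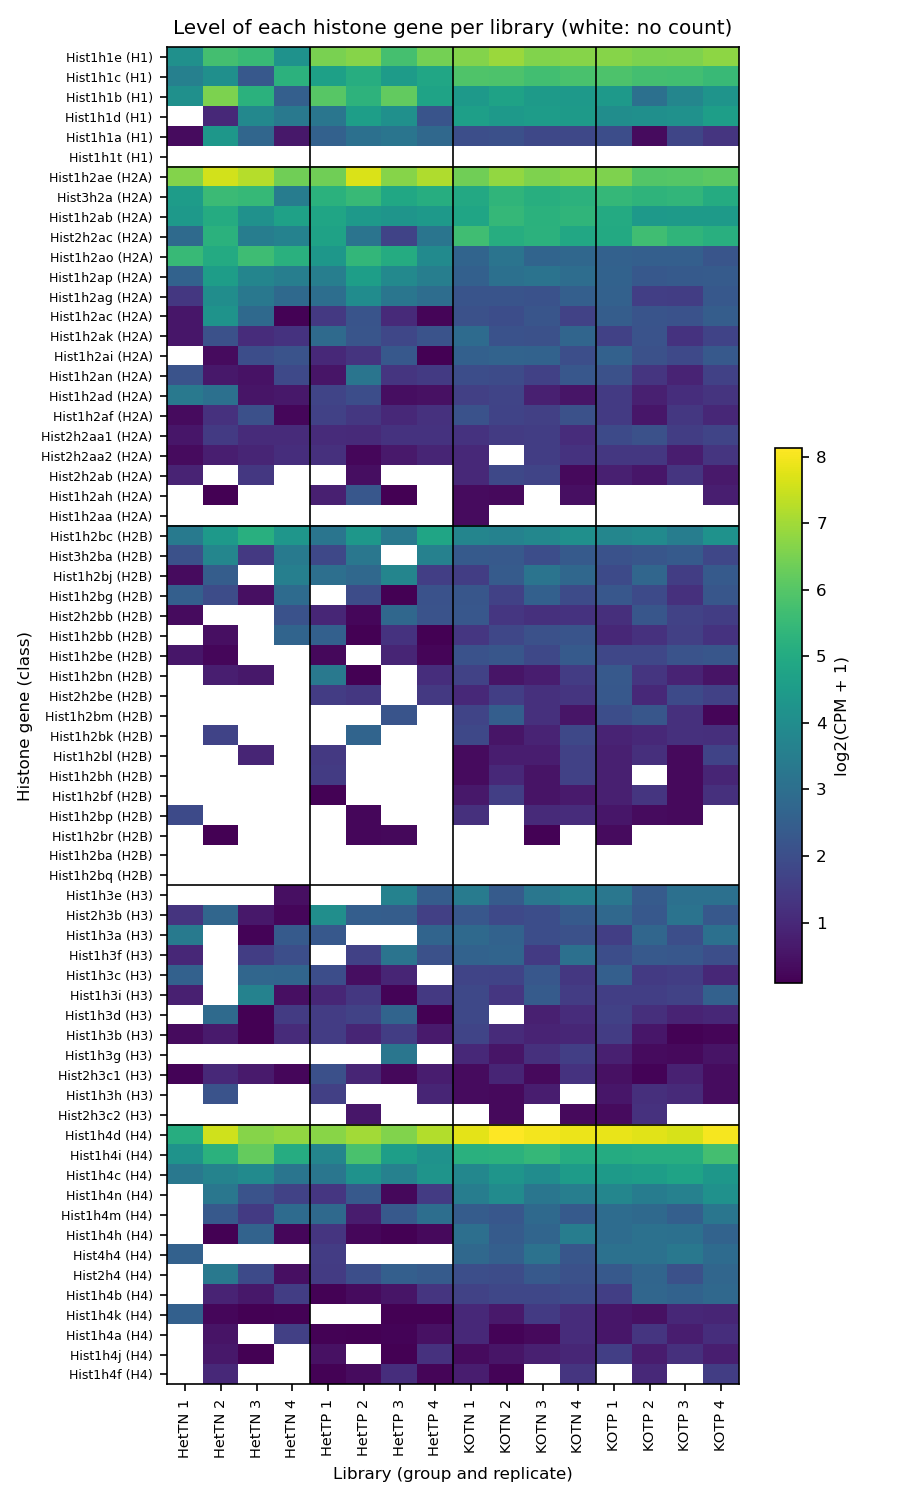
Level of each of the 67 histone genes (rows, by class, then by mean CPM) in each of the 16 libraries (columns), as log2(CPM + 1), with white for no count. White cells are concentrated in the 8 heterozygous columns, where 38 to 52 genes per library had a count, against 59 to 62 in the homozygous columns.

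More histone genes were seen per homozygous library than per heterozygous one. Genes with a count numbered 38 to 47 of 67 in HetTN, 50 to 52 in HetTP, 59 to 62 in KOTN and 59 to 61 in KOTP, although the total counts of heterozygous libraries (8099655 to 15742445) reached as high as those of homozygous libraries (7748787 to 14325276). Genes with a count in all 4 libraries of a group numbered 28, 39, 55 and 57. The same was seen across all genes tested, of which 11.7% to 13.6% had no count in a HetTN library, 7.02% to 11.2% in a HetTP library and 1.52% to 2.34% in a homozygous one. The median coefficient of variation over the 11 members at 10 CPM or more in every group was 0.570 in HetTN, 0.333 in HetTP, 0.122 in KOTN and 0.206 in KOTP, against 0.388, 0.334, 0.129 and 0.129 for the 5093 genes that met the same limit within the members' range of mean levels. Both sets varied most in HetTN, and the part of this spread in which scarce members were seen was not tested.

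In the reported edgeR fit no histone gene was called between tdTomato-positive and tdTomato-negative cells, although some fits with 1 library left out called 1 or 2. The shares that follow are for the reported fit unless another is named. In heterozygous cells 1.07% of all genes were called and no member, with 6 members at an unadjusted p under 0.05. There DESeq2 called 6.72% of all genes and 4 of 56 members (all higher in HetTP), voom 0.0468% and no member, and edgeR on these 8 libraries alone 0% and no member. In homozygous cells 0.0187% of all genes were called and no member, with 1 member at an unadjusted p under 0.05. There DESeq2 called 0.104% of all genes and no member, voom 3.19% and 2 of 56 members (both lower in KOTP), and edgeR on these 8 libraries alone 2.37% and no member. The share of all genes called between the sorted populations thus depended on the fit, and the members' share in each of these fits was near it or 0. The difference between the tdTomato effects of the genotypes was called in 0.122% of genes and in no member, with 5 at an unadjusted p under 0.05. DESeq2 called 1.84% of genes and 1 member, and voom 0.0655% and none. The summed histone level was 1.12 times as high in HetTP as in HetTN and 0.912 times as high in KOTP as in KOTN, with overlapping libraries.

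**Figure D4:**
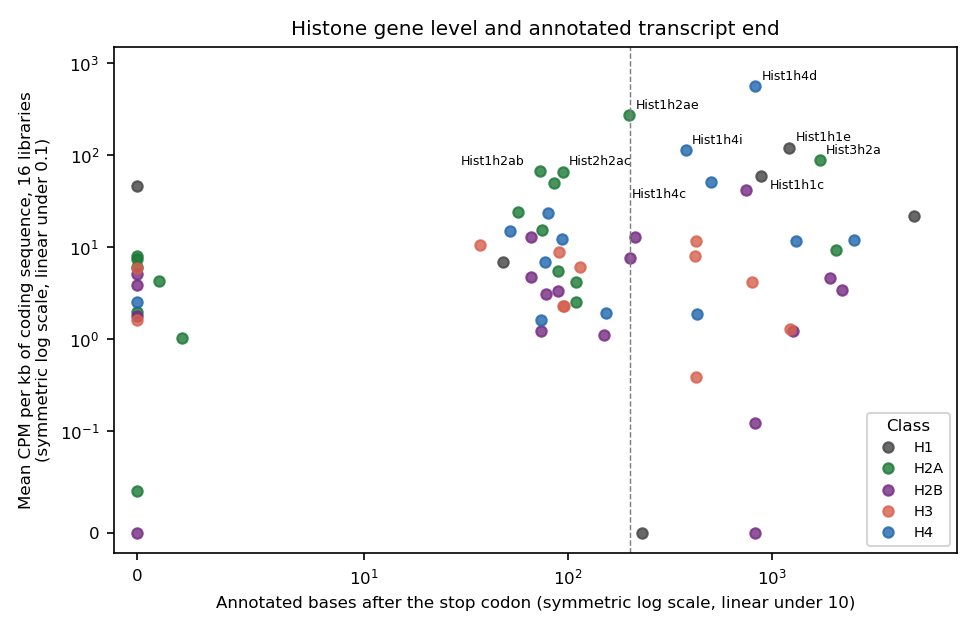
Mean level of each histone gene over the 16 libraries, in CPM per kilobase of coding sequence, against the number of bases annotated after its stop codon, both on symmetric log scales, coloured by class; the dashed line marks 200 bases. Of the 12 highest genes, 7 lie to the right of the line, among them Hist1h4d, Hist1h1e, Hist1h4i and Hist3h2a.

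The annotated transcript end differed widely among the members and was not used to choose them. In GENCODE, 24 of the 67 genes have a transcript that continues for more than 200 bases after the stop codon, and 7 of the 12 highest members per kilobase are among them. The stem-loop was found in 20 of the 24, whose transcripts continue past it, and not in the other 4. Hist1h4d continues for 822 bases, Hist1h1e for 1209, Hist1h1c for 880 and Hist1h3e for 421, against 85 bases in Hist1h2ao and 94 in Hist2h2ac. These 24 genes held 47.0% of the histone sum in HetTN, 52.1% in HetTP, 65.7% in KOTN and 69.0% in KOTP. The largest of them was Hist1h4d, at means of 344, 381, 794 and 727 CPM per kb in these groups. The 24 did not all rise. Long-end Hist1h4i, Hist3h2a, Hist1h4c and Hist1h2bc, also among the 12 highest, were not called in either genotype comparison. Their log2 fold changes were -0.05, 0.28, 0.72 and -0.59 in KOTN against HetTN. In KOTP against HetTP they were 0.70, 0.33, 0.92 and 0.01. The median level was 10.4 CPM per kb in the 24 and 5.43 in the other 43. Of the 7 members called in either genotype comparison, Hist1h1c, Hist1h1e, Hist1h3e, Hist1h4d and Hist2h2be had the long end, and each of them rose; Hist2h2ac rose with a short end. Whether the transcripts counted here were polyadenylated was not measured.

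Many genes of DNA replication fell in homozygous cells, while the histone sum was not lower. The list of 24 S phase genes fell in 19 of 24 members in KOTP against HetTP and in 12 of 24 in KOTN against HetTN, with none higher, and with median log2 fold changes of -1.72 and -1.11. Its summed level was 2845 ± 402 CPM in HetTN and 2978 ± 579 in HetTP against 1422 ± 130 in KOTN and 1033 ± 41.7 in KOTP (SD, n = 4), with no overlap. Mcm5, a subunit of the replicative helicase, fell by 1.56 on the log2 scale in tdTomato-negative cells (SE 0.23, adjusted p = 0.000266, edgeR) and by 2.21 in tdTomato-positive cells (SE 0.24, adjusted p = 9.2e-06). Pcna, the sliding clamp of the replication fork, fell by 1.13 (adjusted p = 0.000853) and 1.00 (adjusted p = 0.0018). Germinal center markers moved with the S phase genes: 4 of 8 fell in KOTP against HetTP and 3 of 8 in KOTN against HetTN, with none higher. Bcl6, the master transcription factor of germinal center B cells, fell from 219 ± 42.4 to 54.8 ± 10.3 CPM in tdTomato-positive and from 318 ± 64.1 to 80.8 ± 17.6 CPM in tdTomato-negative cells (SD, n = 4; adjusted p = 2.9e-05 and 1.9e-05, edgeR). Mef2b and Gcsam were called lower in both comparisons and S1pr2 in the tdTomato-positive one. Of the 6 plasma cell markers, 2 fell in tdTomato-positive cells (Jchain and Irf4) and 1 in tdTomato-negative cells (Jchain), and Tnfrsf17 was at 0 in HetTN, HetTP and KOTN. The part of germinal center or plasma cells in the S phase and histone values was not tested.

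**Figure D5:**
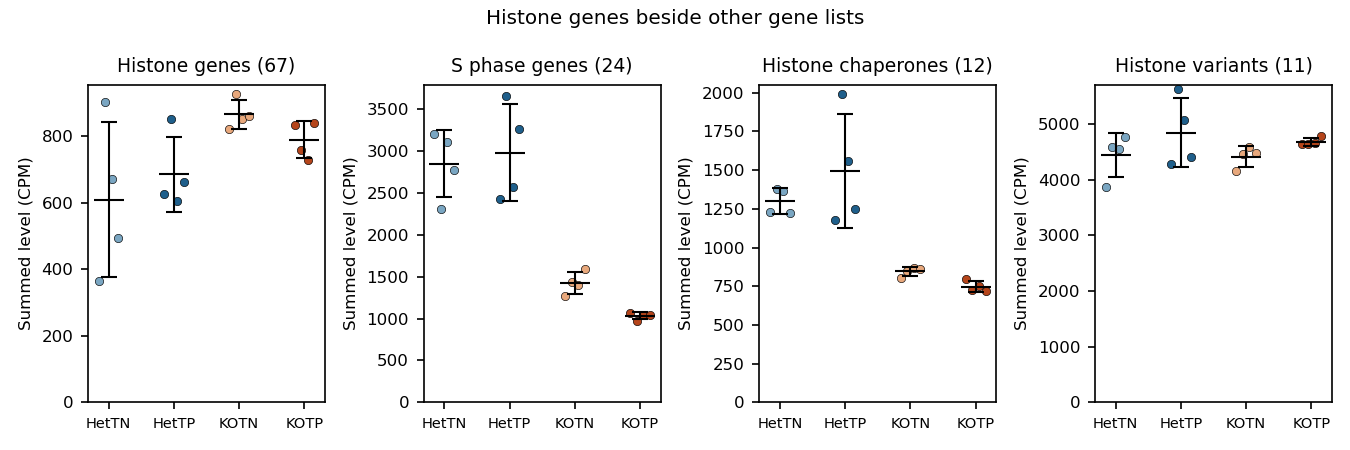
Summed level in CPM of the 67 histone genes, 24 S phase genes, 12 histone chaperones and 11 histone variants in each library (points), with group mean and SD (bars, n = 4) on linear axes from 0. The S phase and chaperone sums are lower in all homozygous libraries, and the histone sum is not.

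Genes that handle new histones and their mRNA also fell where they passed the test. Among 12 histone chaperones, which carry and deposit histones, 6 fell in KOTP against HetTP and 3 in KOTN against HetTN, with none higher. Ssrp1, a subunit of the FACT complex, fell by 1.16 and 0.98 on the log2 scale in tdTomato-positive and tdTomato-negative cells (adjusted p = 0.000219 and 0.00126, edgeR), and Chaf1a, of the replication-coupled assembly factor CAF-1, fell by 2.88 and 1.94 (adjusted p = 0.000915 and 0.0148). Of 12 genes for histone mRNA transcription, end processing and decay, 3 fell in tdTomato-positive and 1 in tdTomato-negative cells. Slbp fell from 222 ± 49.4 to 119 ± 0.752 CPM in tdTomato-positive cells (log2 fold change -0.67, SE 0.15, adjusted p = 0.00653), while its log2 fold change of -0.42 in tdTomato-negative cells did not pass (adjusted p = 0.0836). Npat, the coactivator of histone gene transcription, did not pass in either comparison (log2 fold changes of -0.51 and -0.48).

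Histone variants, most of which are made outside S phase as well, from polyadenylated mRNAs, split by gene. H2afx, which can also end in the stem-loop form, and Cenpa, the centromeric H3 made late in the cell cycle, are exceptions in the list. Of 11 listed, 10 were tested, and 2 rose and 4 fell in KOTP against HetTP, and 2 rose and 2 fell in KOTN against HetTN. H2afj rose in tdTomato-negative cells from 229 ± 20.7 to 422 ± 34.6 CPM and in tdTomato-positive ones from 293 ± 52.8 to 430 ± 31.5 CPM, with log2 fold changes of 0.96 and 0.78 (adjusted p = 0.000244 and 0.00106, edgeR). H2afj and H2afx share 50-base windows with Hist1h2ao and other H2A members. How reads that map to several genes were counted is not given, so their values carry that uncertainty too. H3f3a, a gene for the replacement histone H3.3, rose by 0.39 (adjusted p = 0.0498) and 0.94 (adjusted p = 6.3e-05) on the log2 scale. H2afz, a gene for H2A.Z, fell by 0.72 (adjusted p = 0.027) and 1.27 (adjusted p = 0.000398). H1fx, an H1 variant gene, fell from a mean of 5.07 CPM in HetTN to 0.0645 CPM in KOTN (adjusted p = 0.0264, edgeR). In tdTomato-positive cells it fell from 4.90 CPM in HetTP to no count in KOTP (adjusted p = 0.00709, edgeR). H2afx and Cenpa fell in tdTomato-positive cells, by 1.54 and 1.16 on the log2 scale (adjusted p = 0.000251 and 0.0177), and did not pass in tdTomato-negative cells (log2 fold changes of -0.28 and -0.55). The variant sum stayed within 3857 to 5617 CPM in all 16 libraries.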

How the data were processed

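The submitters' processing notes name Trim Galore, STAR 2.2.0, featureCounts and the build mm10; strand, read pair and multi-mapping settings are not given in the sources used here. The authors deposited raw counts over coding sequence, 1 table per genotype, per the file headers. The 22680 entries per table were joined on symbol, leaving out 4 entries of duplicated names and 1 without a partner. Another 12 columns per table were not used.

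Levels are CPM of the library total. The test was the quasi-likelihood test of edgeR 4.0.16 under R 4.3.3: TMM, filterByExpr by group, robust fit of 4 group means over all 16 libraries (12 residual degrees of freedom), 5 comparisons, Benjamini-Hochberg over all genes. The procedure was tested on simulated data in which all genes and libraries had the same spread. That simulation does not cover groups of unequal spread, as found here. Also tried were upper quartile and RLE scaling, testing without a filter, at least 5 CPM in at least 4 libraries, DESeq2 1.42.0, voom (limma 3.58.1) with quality weights, a replicate block, the compared libraries alone, and each library left out.

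The members, the 10 gene lists and the choices above were made with earlier results of these data known. Named were members called in a comparison, the 12 highest per kilobase, the 3 largest uncalled fold changes per genotype comparison, Zfp318, and up to 4 genes per list by smallest p. Npat, Cenpa and the cell type markers Adgre1, Cd4 and Tnfrsf17 were named after their values were seen. So were the members Hist1h1a, Hist1h1d, Hist1h2ag, Hist1h2ap, Hist1h4a, Hist1h4b, Hist1h4n and Hist2h2aa1. Whether libraries came from separate animals is not in the labels, and p-values reflect only the spread among these 16. Counts carry no molecular identifiers, so the floor of 3 counts and Poisson intervals cover counting error only. Same-numbered tdTomato-negative and tdTomato-positive libraries of a genotype had correlations of their deviations from the group means of -0.01 to 0.09, so numbers were not taken as pairs.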

Additional observations from a re-analysis of the deposited data

Results flagged for a closer look

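In 14 of 104 groups of 4 libraries tested, 1 library stood apart by Dixon's criterion at the 95% level. For normally distributed values chance alone meets it in about 1 group in 20. Scarce counts are not so distributed, and a group with counts in 1 library alone always meets it. The 14 therefore cannot be set against that rate. Among scarce genes the library that stood apart was usually the one with counts. In heterozygous cells these were Hist1h2bm (3.56 CPM) and Hist1h3g (8.51 CPM) in HetTP replicate 3, with 0 in the other 3 libraries, and Hist1h3e in HetTN replicate 4 (0.348 CPM, others 0). Hist4h4 stood at 5.06 CPM in HetTN replicate 1 and 1.87 CPM in HetTP replicate 1, others 0. Hist1h4h was at 5.31 CPM in HetTN replicate 3 (others 0 to 0.174) and 1.49 CPM in HetTP replicate 1 (others 0.0635 to 0.226), and Hist1h4k at 4.82 CPM in HetTN replicate 1 (others 0.0648 to 0.172). Hist2h2be was the reverse, at 0 CPM in HetTP replicate 3 against 1.61 to 1.87 CPM.

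Among abundant genes, the H2A sum was 381 CPM in HetTP replicate 2 against 217 to 245 CPM. KOTN replicate 2 was high in Hist1h1b (25.4 CPM against 20.3 to 21) and Hist1h1e (120 CPM against 96.6 to 100.2). Hist1h2ab was at 30.9 CPM in KOTP replicate 1 against 20.8 to 21.3, and Hist1h4i at 52.1 CPM in KOTP replicate 4 against 31.5 to 33.2.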

How the results depend on the processing

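In KOTP against HetTP, 3 histone genes were called in the reported fit, 6 with voom, 8 with DESeq2 and 7 with the 8 compared libraries alone, where these fits called 10.3%, 11.5%, 14% and 11.7% of all genes. In KOTN against HetTN, 6 were called, and 3 with the compared libraries alone (10.5% and 7.3% of all genes). DESeq2 called 4 in HetTP against HetTN (6.72% of all genes) and 1 for the difference of the tdTomato effects (1.84%), and voom called 2 in KOTP against KOTN (3.19%), where the reported fit called 0. Over all genes, edgeR called 114 in HetTP against HetTN and 2 in KOTP against KOTN with all 16 libraries, and 0 and 236 with the compared libraries alone. The replicate block gave 4, 6, 0, 0 and 0 calls in the 5 comparisons and changed no count by over 1.5 times. Leaving out 1 library moved KOTP against HetTP to 1 to 5 calls (1 without HetTP replicate 2, KOTP replicate 2 or KOTP replicate 4, 5 without HetTP replicate 1), and KOTN against HetTN to 4 to 8. HetTP against HetTN ran from 0 to 2, with 1 without HetTN replicate 2 and 2 without HetTP replicate 3. With the compared libraries alone, a choice added after seeing the data, the leave-outs gave 3 to 8 calls in KOTP against HetTP and 1 to 8 in KOTN against HetTN, with 1 without any 1 of the 4 KOTN libraries. They gave 0 to 2 in KOTP against KOTN, with 2 without KOTP replicate 1 or KOTN replicate 1. The spread over all genes in edgeR (common biological coefficient of variation) was 0.845 with HetTP and HetTN alone and 0.200 with KOTP and KOTN alone. It was 0.587 with KOTP and HetTP, 0.670 with KOTN and HetTN, and 0.687 with all 16 libraries. In the reported fit all comparisons shared the spread estimated from the 16 libraries. The cause of the changes in calls was not tested.

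Hist1h2ao kept its call in both comparisons, and Hist1h1e in KOTN against HetTN, under all 16 alternatives of the fit. Log2 fold changes that turned direction were all near 0 or uncalled. In KOTN against HetTN, Hist1h1b was -0.70 and 0.022 with voom (-1.07 to 0.30 over the leave-outs), Hist1h4i was -0.05 and 0.094 with the replicate block, 0.080 with voom and 0.039 with upper quartile scaling (-0.31 to 0.44), and Hist3h2a was 0.28 (-0.0020 to 0.56). In KOTP against HetTP, Hist1h2bc was 0.01 and -0.030 with DESeq2, -0.013 with the 5 CPM filter and -0.031 with RLE scaling (-0.21 to 0.40). The members' median log2 fold change ran from 0.40 (5 CPM filter) to 1.19 (voom) in KOTP against HetTP and from 0.65 (5 CPM filter) to 1.815 (voom) in KOTN against HetTN, where voom put the median of all genes at 0.19 and 0.33. A count of 0 over a group, as 10 members had in HetTN, allows up to 3 counts. Even values made up 65.7%, 56.7%, 77.8% and 76.3% of member counts up to 60 in HetTN, HetTP, KOTN and KOTP, against 64.8%, 75.03%, 75.6% and 75.5% over all genes. How read pairs were counted is not given, so counting intervals may be too narrow.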
